A study of Homo sapiens with 18 samples.

Results

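The genes described here encode the proteins of the mitochondrial ribosome. They were taken as the protein-coding genes whose symbol is MRPL or MRPS followed by a digit, joined by Ensembl identifier to the count tables and kept where at least 3 libraries had 10 or more counts. All 76 candidate genes passed, 48 MRPL and 28 MRPS, of 57905 genes in the tables. Symbols were taken from the GENCODE annotation of GRCh37, which matched 55538 identifiers. MRPL45 and MRPS21 were not analysed here. The data are 18 RNA sequencing libraries, made from poly(A)-selected RNA of 2 established human plasma cell lines, KMS12-BM, from a multiple myeloma, and JJN3, from a plasma cell leukemia. The libraries form 6 groups of 3: each line with DMSO (untreated by its label, with no duration given), with amiloride for 24 h (0.1 mM in KMS12-BM, 0.4 mM in JJN3) and with TG003 for 24 h (0.4 mM in both). Cells were grown in RPMI 1640 medium with fetal bovine serum, at 10% for JJN3 and 20% for KMS12-BM. Amiloride, used as a diuretic, blocks epithelial sodium channels, and TG003 inhibits CLK kinases, which phosphorylate splicing factors. The series asks what amiloride does in myeloma cells.

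The mitochondrial ribosome translates the few messengers encoded in mitochondrial DNA, all of them for subunits of the respiratory chain and ATP synthase. Its ribosomal RNAs come from the mitochondrial genome, whereas its proteins are encoded in the nucleus, made in the cytosol and imported. Some of these proteins have counterparts in bacterial ribosomes and others are found only in mitochondria. Names do not always give the place: MRPS30 and MRPS18A sit in the large subunit despite the S, and MRPS36 is now known as a subunit of the 2-oxoglutarate dehydrogenase complex.

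Each library had between 23707695 and 50570234 reads in genes, of which 117670 to 277531 fell in the 76 genes. The 6 TG003 libraries stood apart in how reads were placed. Processed pseudogenes, genomic copies of spliced messengers, held 0.106% to 0.13% of reads in them and 4.5% to 5.63% in the other 12. Pseudogenes named after a mitochondrial ribosomal protein gene exist for 33 of the 76 genes. They held 0.0103 to 0.019 reads per 100 reads of the genes themselves in the TG003 libraries and 0.775 to 1.4 in the others. Reads of 38 genes can be confused with another gene, because 14 share exon positions with a gene on the same strand and 28 with one on the other strand. The sources used here do not give the strand setting of the counting. Below, such overlaps are named for some of these genes only. The line markers followed the labels, with CCND1 at 951 CPM (counts scaled to library size) in KMS12-BM and 1.3 CPM in JJN3 under DMSO, and MAF at 0.37 and 876 CPM. Of the plasma cell markers, SLAMF7 stayed at or under 2.79 CPM in every library, CD38 was low in JJN3 (4.34 CPM under DMSO) and SDC1 was low in KMS12-BM (13.6 CPM). Of 14 markers of T cells, monocytes, stroma, endothelium and red cells, 6 passed 1 CPM in some library, with HBB the highest at 65.8 CPM in JJN3.

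Under DMSO both lines expressed the whole set over a wide range of levels. On the scale of CPM per kb of transcript, the only scale on which genes are compared with each other here, MRPL51 was first in KMS12-BM with 238, followed by MRPL20 with 206 and MRPS34 with 204. In JJN3 the order began with MRPL36 at 192, MRPL24 at 178 and MRPL20 at 136. MRPL30 was last in both lines, at 0.147 and 0.181 CPM per kb. Its counts lay between 0 and 34 per library, and 2 annotated genes share its exons, so its reads may have been assigned elsewhere. MRPS24, with 45 to 263 counts, was the only other gene averaging under 5 CPM over all 18 libraries, and shares exons with a read-through gene.

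The untreated lines differed in 55 of the 76 genes by edgeR's quasi-likelihood test at a Benjamini-Hochberg adjusted p under 0.05, the rule behind every call below. Of these, 26 were higher in KMS12-BM and 29 lower. Among all 17772 genes tested, 76% were called, 36.8% higher and 39.3% lower, so the share in this set was near that of genes at large. MRPL36, a small large-subunit protein with a bacterial counterpart, had 30.8, 33.8 and 30.2 CPM in KMS12-BM against 123, 112 and 116 CPM in JJN3 (log2 -1.89 ± 0.09, the ± on a log2 fold change being its standard error throughout, adjusted p = 4.81e-14). MRPS6, a small-subunit protein, followed with -1.70 ± 0.09, then the peptidyl-tRNA hydrolase MRPL58 with -1.55 ± 0.10, MRPS7 with -1.34 ± 0.08 and MRPL37 with -1.31 ± 0.10. MRPS6 shares exon positions with SLC5A3, so its reads are less certain. MRPS18C (-1.11), MRPL24 (-1.09) and MRPL52 (-1.04, or -0.64 without JJN3 DMSO replicate 1) were also lower in KMS12-BM. Higher in KMS12-BM were MRPS34 (1.402 ± 0.10), MRPS35 (1.16 ± 0.10), the stalk protein MRPL10 (1.07 ± 0.09), MRPL27 (0.95), MRPL23 (0.94), MRPS33 (0.88), MRPL51 (0.82) and MRPL50 (0.75). The MRPL23 call was lost without KMS12-BM DMSO replicate 2 or JJN3 DMSO replicate 3 (adjusted p = 0.141 and 0.117). Of the genes followed in every comparison, MRPL12 (-1.01), MRPL41 (-0.78), MRPS30 (-0.58) and MRPS18B (-0.53) were lower in KMS12-BM and MRPL33 (0.47) was higher. MRPL11, at 0.31, passed at adjusted p = 0.0491, but the call was lost without KMS12-BM DMSO replicate 1 or 2, or without JJN3 DMSO replicate 2 or 3 (adjusted p = 0.0593 to 0.263). MRPS12 (0.13), MRPS36 (-0.11) and MRPS18A (-0.23) did not pass, though without 1 library MRPS36 did (without JJN3 DMSO replicate 3, adjusted p = 0.0434) and MRPS18A did (without JJN3 DMSO replicate 2, adjusted p = 0.0324).

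**Figure D1:**
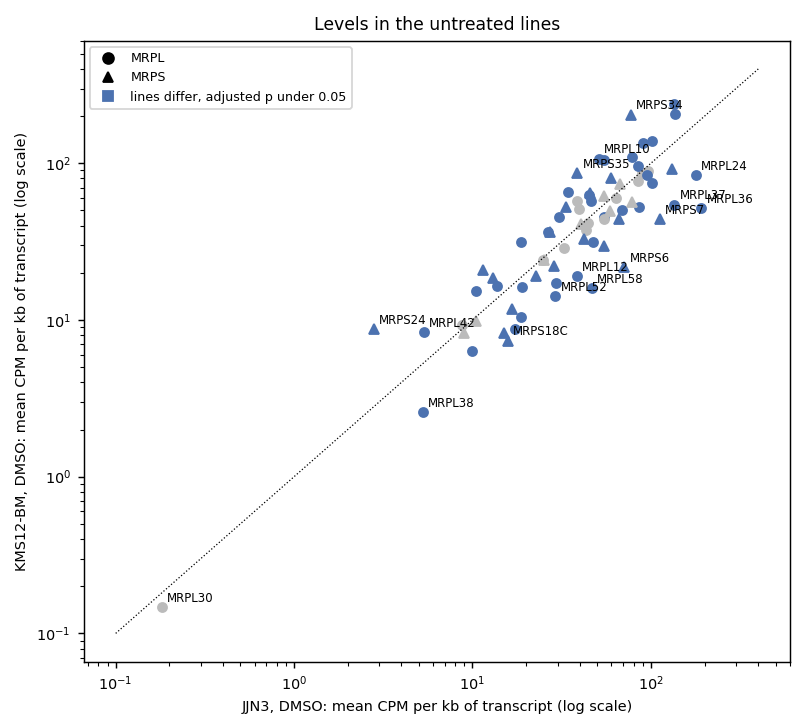
Mean level of each gene under DMSO in JJN3 (x axis) and KMS12-BM (y axis), in CPM per kb of transcript on log axes, n = 3 libraries per line; the dotted line marks equal levels and blue marks a difference at adjusted p under 0.05. MRPL36, MRPS6 and MRPL58 lie well below the line, MRPS34 and MRPS35 above it, and MRPL30 lies alone at the bottom.

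Promoters of 68 of the 76 genes were matched by symbol to RefSeq (build GRCh38.p14), each running from 250 bases before to 50 bases after the start. They were searched on both strands for letters bound by regulators of mitochondrial genes. The ETS-type motif CCGGAAG, of the kind bound by GABP, was found in 28 of 68 (41.2%) and in 14.23% of 15843 protein-coding promoters. The longer YY1-type motif, in capitals in the MRPL36 stretch below, was in 10 (14.7%, against 1.37%), and its first letters AAGATGG, a search that overlaps it, in 22 (32.4%, against 6.4%). The NRF1 motif, in capitals in the MRPL17 stretch, was in 1 (1.5%, against 1.75%), and the same motif with its sixth base free in 7 (10.3%, against 8.58%). The E-box CACGTG was in 6 (8.8%, against 8.88%). ETS-type and YY1-type letters were thus more frequent in these promoters than in all promoters, and NRF1 and E-box letters were about as frequent. Median GC content was 60.3% in the 68 promoters and 62.7% in all. By their response to amiloride in KMS12-BM, 14 of 28 promoters of genes that rose, 2 of 16 of genes that fell and 12 of 24 of genes not called held the ETS-type letters. These counts describe letters, not bound sites, and no difference between them was tested. Stretches of 40 bases that lie wholly before the start show the motifs in genes that the comparisons below turn on, written 5′ to 3′ along the gene's strand with the motif in capitals.
MRPL48 (ETS-type, reverse letters, chr11:73787795-73787834, plus strand): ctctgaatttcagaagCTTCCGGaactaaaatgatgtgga
MRPL58 (ETS-type, chr17:75012630-75012669, plus strand): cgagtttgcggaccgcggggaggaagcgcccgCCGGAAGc
MRPL27 (ETS-type, chr17:50373213-50373252, minus strand): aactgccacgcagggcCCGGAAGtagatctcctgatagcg
MRPL52 (YY1-type first letters, chr14:22829807-22829846, plus strand): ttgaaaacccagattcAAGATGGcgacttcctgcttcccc
MRPL36 (YY1-type, reverse letters, chr5:1799850-1799889, minus strand): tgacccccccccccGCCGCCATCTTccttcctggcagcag
MRPL17 (NRF1, chr11:6683397-6683436, minus strand): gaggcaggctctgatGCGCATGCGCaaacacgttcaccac
MRPL48 and MRPL58 rose and MRPL27 fell with amiloride in KMS12-BM, so letters of 1 type stood before genes that moved both ways. MRPL52 had the largest rise and MRPL36 the largest fall with TG003 in that line. MRPL17, the only gene with the exact NRF1 letters among the 68 searched, fell in every drug comparison.

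Many of the genes start close to the start of a gene on the other strand. Within 1000 bases, 27 of 76 (35.5%) had the start of a protein-coding gene on the other strand, against 13.2% of 19404 protein-coding genes. Both counts include pairs that overlap at their starts, such as MRPS18B with PPP1R10 and MRPS7 with GGA3, and so are not counts of head-to-head pairs alone. MRPL46 and MRPS11 form the only pair within the set. Their starts on chromosome 15 of GRCh37 are at 89010621 (MRPL46, minus strand) and 89010684 (MRPS11, plus strand), and the 62 bases between them are shown on the plus strand because both genes could be regulated from them, with none of the motifs above found and hence no capitals.
MRPL46 to MRPS11 (GRCh37, chr15:89010622-89010683): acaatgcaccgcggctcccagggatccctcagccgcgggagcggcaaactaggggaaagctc
With amiloride in KMS12-BM the neighbours moved in opposite directions, MRPL46 by 0.42 and MRPS11 by -0.63 on the log2 scale. MRPL46 had 17.6, 16.0 and 15.2 CPM under DMSO and 20.3, 21.3 and 23.5 CPM with amiloride, and MRPS11 had 36.7, 33.2 and 30.3 CPM against 22.3, 21.6 and 20.7 CPM. Neither gene's groups overlapped. MRPL46 shares exon positions with an annotated gene on its own strand.

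The first drug comparison sets amiloride at 0.1 mM against DMSO in KMS12-BM. Amiloride moved the set in both directions: 30 of the 76 genes rose and 18 fell. Among all 15765 genes tested 68.7% were called, 33.5% higher and 35.2% lower, so the number of calls was near that of genes at large. The split leaned to rises, mainly in the MRPS genes (15 rose and 5 fell of 28), while MRPL genes were near balance (15 rose and 13 fell of 48). The median log2 fold change was 0.056 in the set, 0.302 in MRPS genes and 0.026 in MRPL genes, against -0.02 in all genes. By the structural lists, 9 rose and 2 fell of 20 large-subunit proteins specific to mitochondria, and 7 rose and 11 fell of 30 large-subunit proteins with bacterial counterparts. In the small subunit 6 rose and 2 fell of 10 mitochondria-specific proteins, and 7 rose and 3 fell of 15 with bacterial counterparts.

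The largest rise was in MRPL22, which lines the exit tunnel for the new protein chain (chromosome 5, 154320633 to 154348971). It had 19.3, 21.9 and 19.6 CPM under DMSO and 47.4, 51.3 and 54.0 CPM with amiloride. The groups were far apart, with a log2 fold change of 1.33 ± 0.09 (adjusted p = 2.5e-07). MRPL48, a mitochondria-specific large-subunit protein (chromosome 11, 73498917 to 73576178), went from 68.6, 68.5 and 93.8 CPM to 140, 198 and 192 CPM (1.20 ± 0.15, adjusted p = 3.42e-05). All amiloride libraries lay above all DMSO libraries. MRPL58, which frees stalled ribosomes (chromosome 17, 73008765 to 73017356), went from 14.0, 16.1 and 12.5 CPM to 29.5, 31.1 and 26.2 CPM (1.03 ± 0.11, adjusted p = 7.31e-06), again without overlap. Also higher were MRPL13 (1.003 ± 0.33), the small-subunit protein MRPS31 (0.94 ± 0.12), MRPL47 (0.94 ± 0.10), MRPS18C (0.93 ± 0.11), MRPS18B (0.89 ± 0.09) and MRPS30 (0.72 ± 0.07). MRPL13 lost its call when DMSO replicate 2 or amiloride replicate 2 was left out (adjusted p = 0.0503 and 0.0874).

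The largest fall was in MRPS25, a mitochondria-specific small-subunit protein (chromosome 3, 15051118 to 15106846). It had 92.5, 72.8 and 97.3 CPM under DMSO and 30.3, 26.1 and 20.7 CPM with amiloride (-1.77 ± 0.14, adjusted p = 9.63e-07). The lowest DMSO library was still far above the highest amiloride library. MRPS25 shares exon positions with NR2C2 on the other strand. MRPL1, the protein of the movable L1 stalk (chromosome 4, 78783984 to 78873939), went from 7.99, 9.55 and 13.3 CPM to 2.97, 3.43 and 4.30 CPM (-1.54 ± 0.19, adjusted p = 2.51e-05). MRPL12, a stalk protein that contacts translation factors and also binds the mitochondrial RNA polymerase (chromosome 17, 79670397 to 79674547), went from 20.4, 21.6 and 15.8 CPM to 6.21, 8.87 and 5.34 CPM (-1.49 ± 0.19, adjusted p = 3.7e-05). Neither MRPL1 nor MRPL12 had overlapping groups, and MRPL12 shares exon positions with another annotated gene on its strand. MRPL27, which sits near the peptidyl transferase centre, fell by 1.32 ± 0.09, MRPS16 by 0.92 ± 0.09, MRPS14 by 0.87 ± 0.10 and MRPL41 by 0.74 ± 0.21. MRPL23, which lies at the tunnel exit, was at -1.15 ± 0.38 (adjusted p = 0.0226) with overlapping groups. It lost the call when DMSO replicate 2, amiloride replicate 2 or amiloride replicate 3 was left out (adjusted p = 0.0633 to 0.0872) and with library sets as a replicate block (adjusted p = 0.0693), and it was -1.74 without amiloride replicate 1. In all, 9 genes changed at least 2-fold with a call (11.8%, against 29.6% of all genes tested).

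Transcript GC content moved with this response: over the 76 genes, Spearman's rho between GC content and log2 fold change was -0.345, and -0.373 over 11724 coding genes, a correlation across genes of the same libraries, which are not independent. Genes that rose had a median GC of 44.3%, those that fell 50.4% and those not called 51.4%. With the trend of fold change on GC content taken out, 48 genes were again called, but 34 of the 48 reported calls were kept. MRPL12 was then at -0.80, MRPS31 at 0.54, MRPL47 at 0.48, MRPS18C at 0.46 and MRPL13 at 0.61 (adjusted p = 0.133). MRPL23 was at -0.54 (adjusted p = 0.203), and MRPL41 (0.006), MRPL33 (-0.005) and MRPS36 (-0.09) lost both call and sign. MRPS25 (-1.87), MRPL1 (-2.01), MRPL22 (0.93), MRPL48 (1.13) and MRPL58 (1.115) stayed called in the same direction. MRPL33, which rose by 0.37 in the reported fit, also lost its call without DMSO replicate 1, 2 or 3 or without amiloride replicate 2 (adjusted p = 0.0516 to 0.243), where it was as low as 0.15. MRPL11 (0.05), MRPS18A (-0.06) and MRPS12 (-0.22) were not called. MRPS18A was called without amiloride replicate 3 (-0.22, adjusted p = 0.0328) and MRPS12 with library sets as a replicate block (adjusted p = 0.0336).

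**Figure D2:**
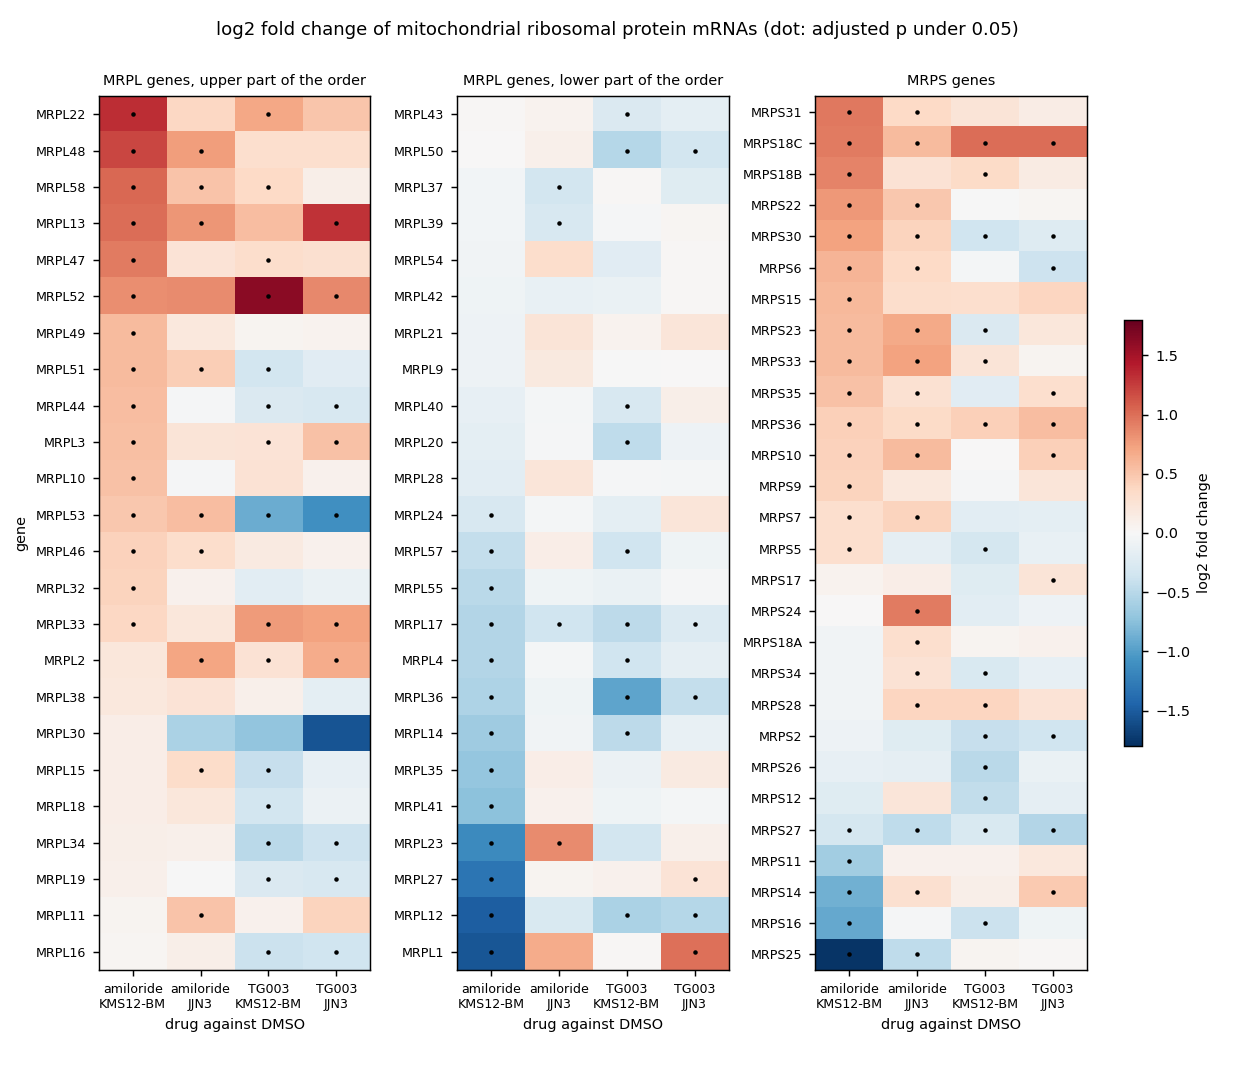
Log2 fold change against DMSO of all 76 genes (rows, ordered within MRPL and MRPS by the change with amiloride in KMS12-BM) in the 4 drug comparisons (columns); red is higher, blue lower, and a dot marks adjusted p under 0.05. MRPL22 and MRPS31 head the amiloride order in KMS12-BM, MRPL1 and MRPS25 end it, and MRPS18C is red in all 4 columns.

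The leukemia-derived line JJN3 received amiloride at 0.4 mM. Here the set moved mostly upward: 26 genes rose and 5 fell. Among all 15704 genes tested 43.6% were called, 19.7% higher and 23.9% lower. The share of genes that rose was therefore above that of genes at large and the share that fell below it. MRPS genes gave 16 rises and 2 falls of 28, and MRPL genes 10 and 3 of 48. The median log2 fold change was 0.214 in the set and -0.034 in all genes, and no gene was called with a 2-fold change, as were 7.14% of all genes.

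Among genes averaging at least 5 CPM over all libraries MRPL23 led the rises (chromosome 11, 1968508 to 2005752), from 28.2, 26.8 and 14.2 CPM under DMSO to 46.1, 49.6 and 31.0 CPM with amiloride (0.85 ± 0.26, adjusted p = 0.0278). The groups did not overlap, but the call was lost without amiloride replicate 1 or 2 (adjusted p = 0.081 and 0.0889). MRPL13 (chromosome 8, 121393000 to 121457642) went from 46.3, 60.2 and 38.2 CPM to 70.9, 99.8 and 82.6 CPM (0.80 ± 0.16, adjusted p = 0.00221). MRPL48 went from 66.1, 68.6 and 42.0 CPM to 94.9, 89.7 and 116 CPM (0.76 ± 0.17, adjusted p = 0.0059). Both had every amiloride library above every DMSO library. MRPL13 starts within 2 bases of MTBP on the other strand and shares exon positions with it. The small-subunit proteins MRPS33 (0.72 ± 0.08), MRPS23 (0.68 ± 0.09) and MRPS10 (0.56 ± 0.08) rose, as did MRPL2 (0.71 ± 0.11), whose bacterial counterpart is needed for peptide bond formation. MRPL11, part of the stalk base, was at 0.52 (adjusted p = 0.0283) and MRPS18C at 0.57 (adjusted p = 0.0233). Both calls were lost when any 1 of several libraries was left out. MRPL11 lost it without DMSO replicate 2 or 3 or amiloride replicate 1 or 2 (adjusted p = 0.0652 to 0.0954), and MRPS18C without DMSO replicate 2 or amiloride replicate 1 or 3 (adjusted p = 0.0632 to 0.0749) and with the GC trend taken out (adjusted p = 0.0699).

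Only 5 genes fell in JJN3, and all by less than 2-fold. MRPS27, a small-subunit protein with RNA-binding repeats (chromosome 5, 71510780 to 71617544), had 119, 120 and 113 CPM under DMSO and 82.8, 84.0 and 90.2 CPM with amiloride (-0.46 ± 0.07, adjusted p = 0.000201). MRPS25 had 115, 97.0 and 101 CPM against 77.4, 79.8 and 72.9 CPM (-0.45 ± 0.08, adjusted p = 0.000609). MRPL17 (chromosome 11, 6701616 to 6704571) had 63.1, 55.2 and 54.3 CPM against 45.3, 43.3 and 47.2 CPM (-0.35 ± 0.08, adjusted p = 0.00314). In each of these 3 genes the groups were apart. MRPL37 (-0.33) and MRPL39 (-0.28), both mitochondria-specific, were the others. Of the genes followed throughout, MRPS30 rose by 0.39, while MRPL12 (-0.28, adjusted p = 0.0726), MRPL33 (0.21), MRPS12 (0.22) and MRPL41 (0.08) did not pass. MRPL33 was called without amiloride replicate 3 (0.31, adjusted p = 0.0311) and MRPS12 without amiloride replicate 2 (0.30, adjusted p = 0.0487).

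Between the lines, 17 genes rose with amiloride in both, of 30 that rose in KMS12-BM and 26 in JJN3. They were 22.4% of the set, against 13.1% of the 13913 genes tested in both lines. MRPL17, MRPS25 and MRPS27 fell in both, of 18 and 5 falls (3.95%, against 15.6%). The 2 comparisons share no library, but their doses differ, so line and dose cannot be told apart. The interaction of line and drug, fitted over all 18 libraries, was called for 30 genes, 20 with a higher and 10 with a lower response in JJN3. Among all 17772 genes 43.2% were called, 21.6% higher and 21.6% lower. Genes with large falls in KMS12-BM were among those that differed most, in part by construction, as the difference subtracts the KMS12-BM change. MRPL1 was at -1.54 in KMS12-BM and at 0.66 in JJN3 (adjusted p = 0.0741, groups overlapping), a difference of 2.22 ± 0.35 (adjusted p = 8.57e-05). MRPL23, lower in KMS12-BM and higher in JJN3, differed by 2.01 ± 0.51 (adjusted p = 0.00574). MRPS14, a small-subunit protein with a bacterial counterpart, fell by 0.87 in KMS12-BM and rose by 0.30 in JJN3, a difference of 1.17 ± 0.14 (adjusted p = 9.6e-07). It shares exon positions with CACYBP on the other strand.

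MRPL27 differed by 1.37 ± 0.14, MRPS25 by 1.32 ± 0.16, MRPL12 by 1.21 ± 0.23, MRPS16 by 0.90 ± 0.11 and MRPL35 by 0.82 ± 0.11, all in the same direction. MRPS25 thus fell in both lines, by 1.77 in KMS12-BM and by 0.45 in JJN3. In the other direction MRPL22 differed by -0.95 ± 0.25. Its JJN3 libraries were spread, with 32.6, 34.7 and 27.4 CPM under DMSO and 39.5, 57.2 and 27.0 CPM with amiloride, and were not called. MRPS18B (-0.62), MRPS31 (-0.58), MRPL44 (-0.57), MRPL10 (-0.55), MRPL58 (-0.50), MRPS5 (-0.46) and MRPL49 (-0.37) also responded less in JJN3. With the GC trend taken out, 30 differences were again called and 20 of the reported ones were kept. MRPL12 was then at 0.72, MRPL41 at 0.31 (reported 0.82), MRPS5 at -0.25, MRPS31 at -0.30 and MRPS30 at -0.21 (reported -0.32), the calls of MRPL41, MRPS31 and MRPS30 being lost (adjusted p = 0.0665, 0.0836 and 0.0731). MRPL11 (0.48), MRPS12 (0.44), MRPS18A (0.37), MRPS18C (-0.36), MRPL33 (-0.16) and MRPS36 (-0.08) did not pass. With library sets as a replicate block MRPL11 and MRPS12 were called (adjusted p = 0.0362 and 0.0365). Leaving out 1 library gave a call for MRPL11 (KMS12-BM DMSO replicate 3, KMS12-BM amiloride replicate 2, JJN3 DMSO replicate 1 or JJN3 amiloride replicate 3, adjusted p = 0.000428 to 0.0496) and for MRPS12 (KMS12-BM DMSO replicate 3, adjusted p = 0.0239). The same held for MRPS18A (KMS12-BM amiloride replicate 3, JJN3 DMSO replicate 3 or JJN3 amiloride replicate 1, adjusted p = 0.00265 to 0.0491) and MRPS18C (JJN3 DMSO replicate 3, adjusted p = 0.0186).

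**Figure D3:**
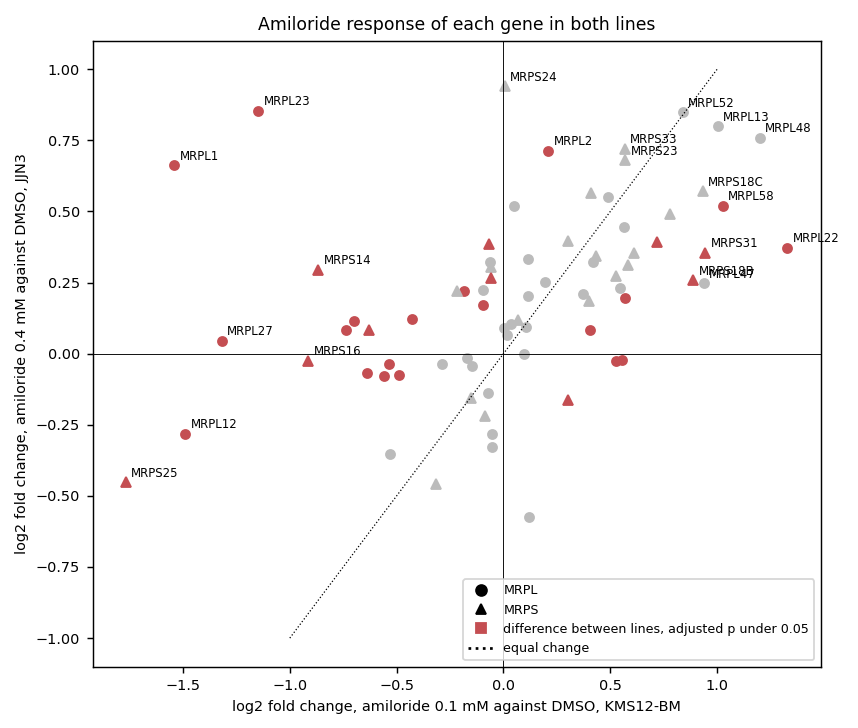
Log2 fold change with amiloride in KMS12-BM at 0.1 mM (x axis) and in JJN3 at 0.4 mM (y axis) for each of the 76 genes; circles are MRPL, triangles MRPS, red marks a difference between the lines at adjusted p under 0.05, and the dotted line marks equal change. MRPL1, MRPL23 and MRPS14 lie at the upper left, lower in KMS12-BM and above 0 in JJN3, and MRPS25 at the lower left is below 0 in both.

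Taken as a sum, the set held a larger part of the reads with amiloride. Abundant genes weigh most in such a sum, and in KMS12-BM 18 genes fell. There the means of MRPL51, MRPL49 and MRPS18B went from 213.4, 220.2 and 127.9 CPM to 316, 326.4 and 236.6 CPM. Summed over the 76 genes, the level was 5205, 5306 and 5303 CPM under DMSO and 5719, 6294 and 5988 CPM with amiloride in KMS12-BM. In JJN3 it was 5503, 5105 and 4928 CPM against 5945, 6035 and 5717 CPM. In both lines all amiloride libraries lay above all DMSO libraries. With TG003 the sums were 4838, 5008 and 5025 CPM in KMS12-BM, below all DMSO libraries, and 5448, 5198 and 5142 CPM in JJN3, within the DMSO range. The lower KMS12-BM sums depended on the scaling, because the unscaled share of reads was 0.5118%, 0.5289% and 0.5256% with TG003 and 0.5105%, 0.5234% and 0.5222% under DMSO. The TMM scaling factors were 1.046 to 1.058 and 0.981 to 0.9868 in these groups. With amiloride the unscaled shares also lay above DMSO, at 0.5958% to 0.639% in KMS12-BM, and at 0.5851% to 0.6019% against 0.4657% to 0.5207% in JJN3. Mitochondrially encoded genes held 4.063% ± 0.196 of reads (SD, n = 3) under DMSO and 0.3583% ± 0.0916 with amiloride in KMS12-BM, and 2.293% ± 0.284 and 0.829% ± 0.175 in JJN3. With TG003 their shares were 3.963% ± 0.496 and 2.31% ± 0.488. The part of that loss in the summed level was not tested. These are shares of reads in bulk libraries, so a change in all cells and a change in some of them cannot be told apart.

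**Figure D4:**
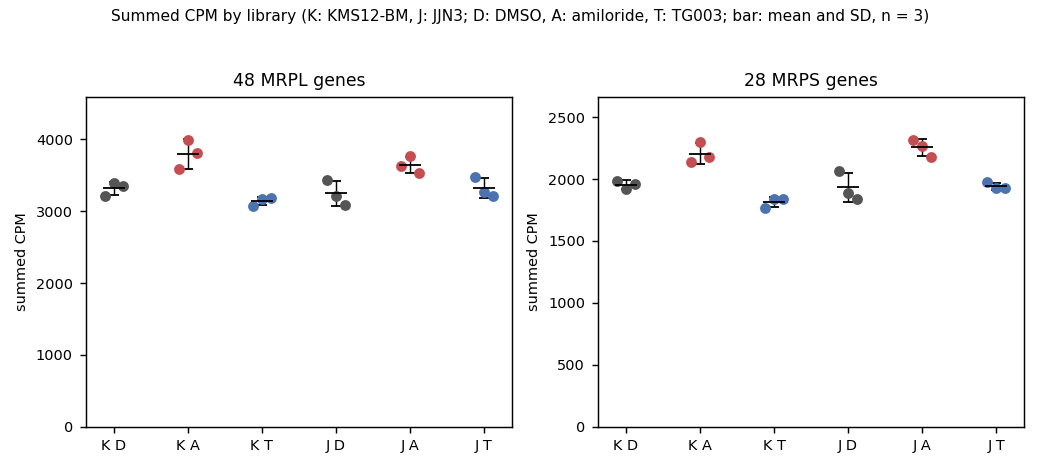
Summed CPM of the 48 MRPL genes (left) and the 28 MRPS genes (right) in each library (points), with mean and SD of 3 libraries, by line (K, KMS12-BM; J, JJN3) and treatment (D, DMSO; A, amiloride; T, TG003). The MRPL sums average 3318 and 3796 CPM with DMSO and amiloride in KMS12-BM, and 3247 and 3643 CPM in JJN3.

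The next drug comparison sets TG003 at 0.4 mM against DMSO in KMS12-BM. RNA counts do not measure CLK activity, so the part of CLK inhibition was not tested. In both lines the TG003 libraries also differed from DMSO in read placement, as given above, and drug and placement cannot be told apart. Falls outnumbered rises: 27 genes fell and 12 rose. The rises were 7 without TG003 replicate 3 and 8 without TG003 replicate 2 or DMSO replicate 3, those in MRPL genes 3, 4 and 4 in place of 7. Among all 15765 genes tested 58.6% were called, 31.7% lower and 26.9% higher, so the share that fell was close to that of genes at large and the share that rose below it. The median log2 fold change was -0.108 in the set and -0.028 in all genes. MRPL genes gave 7 rises and 18 falls, and MRPS genes 5 and 9. Of 30 large-subunit proteins with bacterial counterparts 5 rose and 11 fell, and of 20 specific to mitochondria 2 rose and 8 fell.

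MRPL52, a mitochondria-specific large-subunit protein (chromosome 14, 23299088 to 23304246), had the largest rise of any gene of the set in the drug comparisons. It had 17.1, 15.7 and 14.5 CPM under DMSO and 50.3, 48.6 and 45.4 CPM with TG003 (1.62 ± 0.17, adjusted p = 1.36e-05). MRPS18C went from 12.9, 11.2 and 10.2 CPM to 23.3, 22.6 and 22.6 CPM (1.01 ± 0.11, adjusted p = 1.76e-05). MRPL33, a short protein with a bacterial counterpart (chromosome 2, 27994584 to 28210954), went from 17.1, 20.0 and 18.6 CPM to 32.8, 29.7 and 31.7 CPM (0.76 ± 0.15, adjusted p = 0.00109). In all 3 genes the groups were well apart. MRPL33 shares exon positions with BABAM2, and MRPS18C has 3 pseudogenes. With the counts of each gene's pseudogenes added to its own, MRPS18C was at 0.24 in place of 1.01 (adjusted p = 0.0197). MRPL22 (0.70), MRPS36 (0.43), MRPS28 (0.39), MRPL58 (0.36) and MRPS18B (0.35) were the other large rises. MRPS36 was at -0.12 with its pseudogenes' counts added (adjusted p = 0.316), and the MRPL58 call was lost without DMSO replicate 3 or TG003 replicate 3 (adjusted p = 0.0782 and 0.0628).

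The largest fall was in MRPL36 (chromosome 5, 1798499 to 1801480), from 30.8, 33.8 and 30.2 CPM to 17.9, 15.1 and 16.0 CPM (-0.95 ± 0.10, adjusted p = 1.28e-05). MRPL53, a mitochondria-specific protein near the stalk (chromosome 2, 74699109 to 74699814), went from 7.07, 7.87 and 7.69 CPM to 3.96, 4.45 and 3.72 CPM (-0.90 ± 0.12, adjusted p = 5.93e-05). It shares exon positions with CCDC142. MRPL12 went from 20.4, 21.6 and 15.8 CPM to 15.02, 12.01 and 11.6 CPM (-0.57 ± 0.19, adjusted p = 0.0207). The groups did not overlap in any of the 3, but the MRPL12 call was lost without DMSO replicate 1 or 2 or TG003 replicate 2 or 3 (adjusted p = 0.0559 to 0.077). Next came MRPL50 (-0.52), MRPL34 (-0.49), MRPS26 (-0.49), MRPL14 (-0.48) and MRPL17 (-0.47). MRPS30 fell by 0.37. MRPS12, which lies at the decoding centre, was at -0.44 with overlapping groups, and its call was lost without DMSO replicate 1 or 2 or TG003 replicate 2 or 3 (adjusted p = 0.0643 to 0.117). MRPL11 (0.08), MRPL41 (-0.08) and MRPS18A (0.05) did not pass.

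TG003 against DMSO in JJN3, at the same 0.4 mM, gave as many rises as falls in the set: 13 rose and 13 fell. Among all 15704 genes tested 58.3% were called, 26.2% higher and 32.1% lower. Without DMSO replicate 1 the rises were 20, so how their share compares with genes at large rests on that library. The median log2 fold change was 0.022 in the set and -0.038 in all genes. MRPL13 had 46.3, 60.2 and 38.2 CPM under DMSO and 116, 123 and 110 CPM with TG003 (1.30 ± 0.16, adjusted p = 4.52e-05). MRPS18C went from 30.9, 24.8 and 17.8 CPM to 49.3, 50.4 and 45.3 CPM (1.01 ± 0.17, adjusted p = 0.000635), and was at 0.33 with its pseudogenes' counts added (adjusted p = 0.00688). MRPL1 went from 28.3, 18.6 and 14.3 CPM to 38.4, 42.6 and 39.0 CPM (0.998 ± 0.26, adjusted p = 0.0111). In these 3 genes every TG003 library exceeded every DMSO library, and the DMSO libraries were the more spread.

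MRPL33 (0.73 ± 0.11) and MRPL2 (0.67 ± 0.11) rose further down. MRPL52 was at 0.86 ± 0.31 (adjusted p = 0.0476), with 47.8, 24.8 and 24.3 CPM under DMSO and 60.5, 56.6 and 54.9 CPM with TG003. Its call was lost without DMSO replicate 2 or 3 or without TG003 replicate 1, 2 or 3 (adjusted p = 0.0894 to 0.137). MRPS36 (0.55) and MRPL3 (0.53) were called, but were at -0.05 (adjusted p = 0.71) and 0.20 (adjusted p = 0.0468) with their pseudogenes' counts added.

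MRPL53 fell most in JJN3, from 5.68, 5.02 and 4.98 CPM to 2.18, 2.61 and 2.33 CPM (-1.10 ± 0.20, adjusted p = 0.000498). MRPS27 went from 119, 120 and 113 CPM to 75.3, 83.1 and 81.3 CPM (-0.52 ± 0.07, adjusted p = 2.54e-05). MRPL12 went from 38.7, 36.0 and 41.5 CPM to 29.3, 22.7 and 27.8 CPM (-0.52 ± 0.12, adjusted p = 0.00242). None of the 3 had overlapping groups. MRPL36 (-0.43), MRPS6 (-0.38), MRPL34 (-0.37), MRPS2 (-0.37) and MRPL16 (-0.36) followed. MRPS30 was at -0.23 (adjusted p = 0.0135), a call lost without DMSO replicate 3 or TG003 replicate 1 (adjusted p = 0.0587 and 0.0533). MRPL11 was at 0.40 (adjusted p = 0.058, or 0.018 with library sets as a replicate block), 0.65 and called without DMSO replicate 1, and 0.26 without DMSO replicate 3. MRPS12 (-0.16, called without TG003 replicate 1 with adjusted p = 0.0432), MRPL41 (-0.03), MRPS18A (0.08) and MRPS18B (0.15) did not pass.

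**Figure D5:**
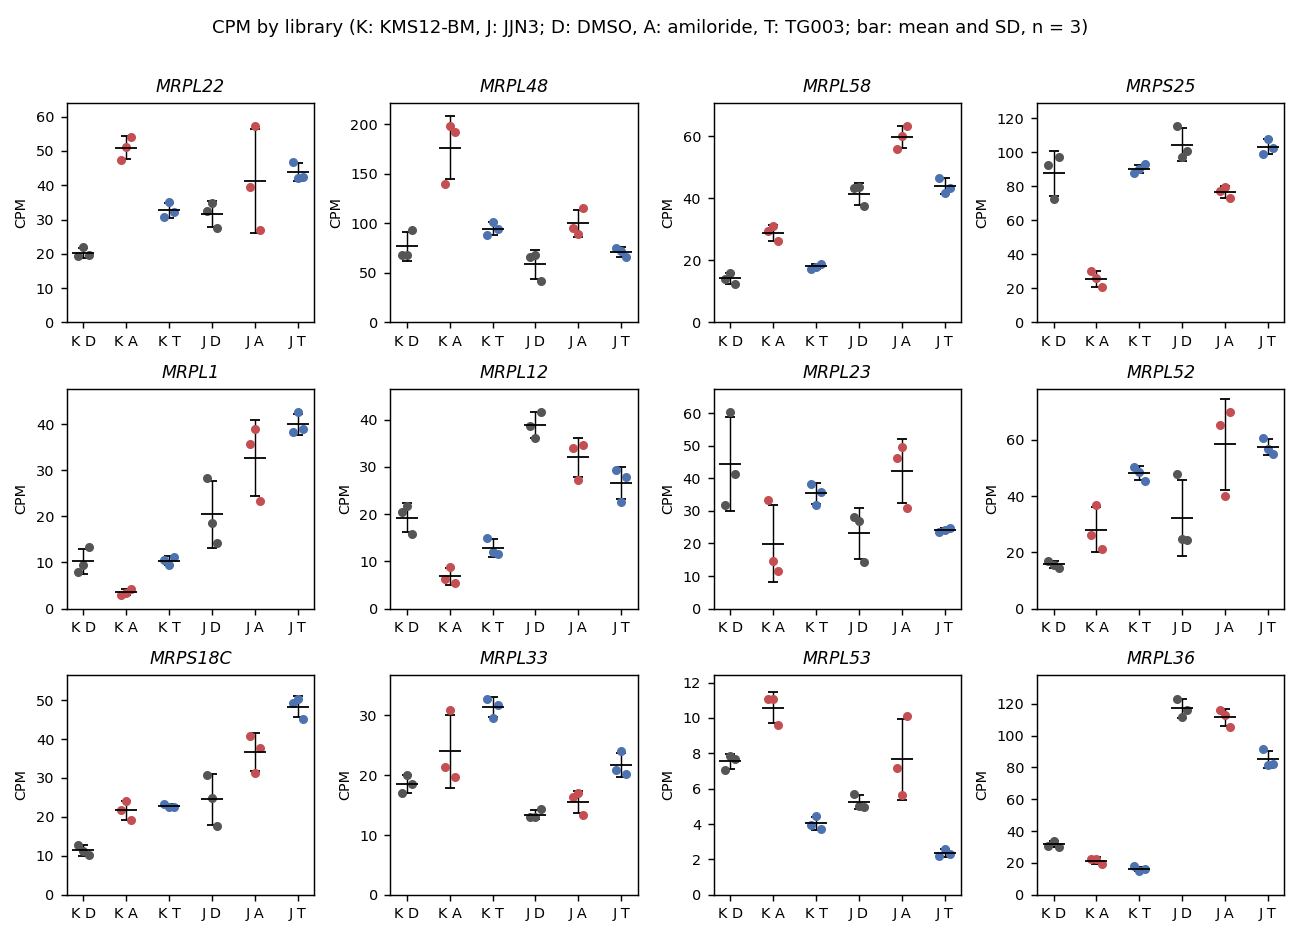
CPM of 12 genes in each of the 18 libraries (points), with mean and SD of 3 libraries, by line (K, KMS12-BM; J, JJN3) and treatment (D, DMSO; A, amiloride; T, TG003). MRPS25, MRPL1 and MRPL12 drop with amiloride in KMS12-BM, MRPL52 is highest in that line with TG003, and MRPL53 is lowest with TG003 in both lines.

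The TG003 responses of the lines could be compared at 1 dose. Both lines shared 6 rises (MRPL2, MRPL3, MRPL33, MRPL52, MRPS18C and MRPS36) and 12 falls, of 12 and 27 in KMS12-BM and 13 and 13 in JJN3. Among the 13913 genes tested in both lines 17.7% rose and 22.8% fell in both, against 7.89% and 15.8% of the set. No gene of the set was called in opposite directions, as were 1.96% of all genes. Reads with more than 1 placement were 7.79% to 9.13% in the TG003 libraries and 13.3% to 17.4% in all others. Drug and read placement therefore cannot be told apart in these shared calls. The interaction was called for 6 genes, all with a higher response in JJN3. Among all 17772 genes 13.9% were called, 6.8% higher and 7.13% lower. These were MRPL36 (0.49 ± 0.12, adjusted p = 0.00999), MRPS35 (0.48 ± 0.13), MRPS23 (0.45 ± 0.13), MRPS17 (0.44 ± 0.12), MRPS10 (0.40 ± 0.10) and MRPL40 (0.37 ± 0.12). MRPL36 thus fell by 0.95 in KMS12-BM and by 0.43 in JJN3. Of the 6 genes, MRPL36 and MRPL40 have 1 named pseudogene each, MRPS35 and MRPS10 have 2 and MRPS17 has 3. With the GC trend removed, genes with a lower response in JJN3 were called as well. The count ranged from 3, without KMS12-BM DMSO replicate 3, to 11, without JJN3 DMSO replicate 1, and was 4 without JJN3 DMSO replicate 3, KMS12-BM TG003 replicate 1 or JJN3 TG003 replicate 1. MRPS35, MRPS23, MRPS17 and MRPL40 each lost their call without at least 1 library (adjusted p = 0.0512 to 0.11), whereas MRPL36 and MRPS10 kept theirs whichever of the 12 libraries of the 4 groups was left out. The other genes followed throughout did not pass, with differences from -0.22 for MRPS18B to 0.30 for MRPL11. MRPL11 was called without JJN3 DMSO replicate 1 (0.54, adjusted p = 0.0172).

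The 3 MRPS18 genes, related copies of 1 bacterial protein placed at different sites of the ribosome, behaved differently. MRPS18A had 58.5, 57.1 and 58.4 CPM under DMSO in KMS12-BM, 49.7, 49.4 and 68.3 CPM with amiloride and 55.1, 61.5 and 62.4 CPM with TG003. In JJN3 it had 69.6, 61.4 and 73.6 CPM, then 77.8, 93.0 and 82.9 CPM with amiloride, a rise of 0.30 (adjusted p = 0.0208, lost without DMSO replicate 2 or amiloride replicate 2, adjusted p = 0.102 and 0.0804), and 78.4, 66.0 and 67.5 CPM with TG003. Only the amiloride value in JJN3 passed for MRPS18A. MRPS18B had 127, 119 and 138 CPM under DMSO in KMS12-BM, 242, 237 and 230 CPM with amiloride and 142, 173 and 171 CPM with TG003, each drug group above the controls. In JJN3 it had 200, 186 and 168 CPM, 251, 194 and 221 CPM with amiloride, and 213, 193 and 197 CPM with TG003, with overlaps and no call. The amiloride value there, 0.26, was near the 0.30 of MRPS18A and just missed the threshold (adjusted p = 0.0538). It was called without DMSO replicate 1 or amiloride replicate 2 (adjusted p = 0.0322 and 0.0105). DESeq2 size factors, the DESeq2 test, both other filters, the replicate block and removal of the GC trend also gave a call (adjusted p = 0.00541 to 0.0471). With limma voom, the compared groups alone or pseudogene counts summed it was not called. MRPS18C was the least abundant, and its JJN3 libraries with amiloride had 40.9, 31.4 and 37.7 CPM against 30.9, 24.8 and 17.8 CPM under DMSO. Its values rested most on read placement, as given above. MRPS18A, MRPS18B and MRPS18C have 1, 2 and 3 pseudogenes. Among the other genes given library by library, MRPL22, MRPL48, MRPL36, MRPL53 and MRPS11 have 1 each. Other named genes have them too, among them MRPL2 and MRPL3 with 1 and MRPS6, MRPS10 and MRPS35 with 2. MRPL50, MRPS16, MRPS17, MRPS31 and MRPS33 have 3 each.

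A few genes were called the same way in all 4 drug comparisons, which share the DMSO libraries within a line: 2 were higher in all (2.63%, against 3.49% of all genes) and 2 lower (2.63%, against 4.3%). MRPL17 was at -0.53 and -0.35 with amiloride in KMS12-BM and JJN3, and at -0.47 and -0.25 with TG003. MRPS27 was at -0.32 and -0.46 with amiloride and at -0.28 and -0.52 with TG003. MRPL17 and MRPS27 have no named pseudogene, but MRPS27 shares exon positions with PTCD2 on the other strand. MRPS18C was at 0.93, 0.57, 1.01 and 1.01 in that order, and MRPS36 at 0.43, 0.34, 0.43 and 0.55. For MRPS36, which has 5 pseudogenes, the calls with TG003 and with amiloride in JJN3 (adjusted p = 0.0578) were lost with their counts added, those with amiloride also with the GC trend taken out (adjusted p = 0.429 in KMS12-BM and 0.0726 in JJN3), and the JJN3 amiloride call also without DMSO replicate 3 or amiloride replicate 1 or 2 (adjusted p = 0.0544 to 0.135). In none of the 4 were 7 genes called (9.21%, against 4.77% of all genes): MRPL9, MRPL21, MRPL28, MRPL30, MRPL38, MRPL42 and MRPL54. MRPL53 rose with amiloride and fell with TG003 in both lines. It had 11.1, 11.1 and 9.58 CPM with amiloride in KMS12-BM and 7.17, 5.67 and 10.1 CPM in JJN3, against the DMSO values given above.

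The rest of the mitochondrial translation system was read from 7 lists. Beside each count of calls stands the share called among all genes, which was 68.7% and 43.6% with amiloride and 58.6% and 58.3% with TG003 in KMS12-BM and JJN3. The RNAs of the mitochondrial genome form a list of 15, the 2 ribosomal RNAs and 13 messengers. Of these 12 fell and 3 rose with amiloride in KMS12-BM (100% called, against 68.7%), and 12 fell and 1 rose in JJN3 (86.7%, against 43.6%). All falls were in messengers. The messenger MT-ND6, for a subunit of respiratory complex I and the one encoded on the opposite strand, had the largest rise, by 2.70 in KMS12-BM and 4.01 in JJN3. As the strand setting of the counting is not given, reads counted for MT-ND6 may include those of the other strand. The ribosomal RNA MT-RNR2 rose by 0.99 in KMS12-BM and was at 0.15 in JJN3, where it did not pass. MT-RNR1 had a mean of 223 CPM under DMSO, 653 CPM with amiloride and 408 CPM with TG003 in KMS12-BM, and rose by 1.55 and 0.88. In JJN3 it had 236, 316 and 432 CPM and rose by 0.91 with TG003, while the amiloride value of 0.42 did not pass (adjusted p = 0.2). Poly(A) selection is not designed to capture ribosomal RNA, so these levels are not totals. The list of mitoribosomal proteins with other names also holds OXA1L and MALSU1, which are not proteins of the mature ribosome. Of this list 1 rose and 3 fell of 7 with amiloride in KMS12-BM, 1 and 0 in JJN3 (57.1% and 14.3% called, against 68.7% and 43.6%). With TG003 1 rose and 2 fell in KMS12-BM and 3 rose in JJN3 (42.9% in both, against 58.6% and 58.3%). GADD45GIP1, a large-subunit protein also called CRIF1, rose with amiloride in both lines (0.43 and 0.36), and DAP3, a GTP-binding small-subunit protein, fell in KMS12-BM by 0.46.

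The list of 16 mitochondrial translation factors also holds the messenger-binding proteins LRPPRC and SLIRP. Of the 16, 8 rose and 4 fell with amiloride in KMS12-BM and 5 rose and 1 fell in JJN3 (75% and 37.5% called, against 68.7% and 43.6%). With TG003, 6 rose and 3 fell in KMS12-BM and 11 rose and 2 fell in JJN3 (56.2% and 81.2%, against 58.6% and 58.3%). MRRF, the ribosome recycling factor, rose in all 4 comparisons (1.25, 0.76, 0.67 and 0.72), and the initiation factor MTIF2 rose with amiloride in both lines (1.07 and 0.87). MTIF3, another initiation factor, fell by 1.32, and MTFMT, which formylates the initiator methionine, by 1.08 with amiloride in KMS12-BM. The release factor MTRF1L rose with TG003 by 1.26 in KMS12-BM and 2.08 in JJN3. Of 21 genes for ribosome assembly and rRNA modification, 7 rose and 5 fell with amiloride in KMS12-BM and 5 and 4 in JJN3 (57.1% and 42.9% called, against 68.7% and 43.6%). RBFA, which matures the small subunit, fell by 2.98 in KMS12-BM and 1.39 in JJN3, and NSUN4, an rRNA methyltransferase, by 1.55 and 0.65. With TG003, 9 of the 21 rose and 4 fell in KMS12-BM and 8 and 4 in JJN3 (61.9% and 57.1%, against 58.6% and 58.3%). YBEY, an endoribonuclease, was among those that rose (0.77 and 0.97).

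Of 13 nuclear regulators of mitochondrial biogenesis, 7 rose and 1 fell with amiloride in KMS12-BM (12 tested) and 7 rose and 2 fell in JJN3 (66.7% and 69.2% called, against 68.7% and 43.6%). YY1, whose motif letters were counted above, rose by 1.18 and 0.52, and GABPA, the DNA-binding subunit of GABP, by 0.67 and 0.38. MYC was the gene that fell in KMS12-BM (-1.08), and fell in JJN3 too (-0.63). With TG003, 2 rose and 6 fell in KMS12-BM and 4 rose and 3 fell in JJN3 (66.7% and 53.8%, against 58.6% and 58.3%). MYC fell in both (-1.01 and -0.46). Cytosolic ribosomal protein genes fell more often than they rose with amiloride: of 82 tested, 7 rose and 33 fell in KMS12-BM and 5 rose and 48 fell in JJN3 (48.8% and 64.6% called, against 68.7% and 43.6%), with RPL13A at -0.84 and -0.69. Their 63 and 60 rises with TG003 (RPL21 at 7.39 and 6.95; 79.3% and 84.1% called, against 58.6% and 58.3%) came in the libraries with few reads in processed pseudogenes. The part of read placement in these rises was not tested. Of nuclear-encoded subunits of the respiratory chain and ATP synthase, 81 were tested in KMS12-BM and 79 in JJN3. With amiloride 12 rose and 26 fell in KMS12-BM and 9 rose and 10 fell in JJN3 (46.9% and 24.1% called, against 68.7% and 43.6%). The respiratory complex subunit UQCRC1 (-1.32) fell in KMS12-BM, and NDUFB1 (1.24) and ATP5ME (1.29) rose in JJN3. With TG003 the counts were 22 rises and 17 falls in KMS12-BM and 20 and 11 in JJN3 (48.1% and 39.2%, against 58.6% and 58.3%), with SDHC up by 1.30 and 1.41.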

How the data were processed

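The files hold gene-level read counts for 18 libraries, deposited by the authors as whole numbers per Ensembl gene. Per the submitters' processing notes, cutadapt 1.4, TopHat2 2.0.11, HTSeq 0.6.1p1 and DESeq2 1.12.4 were used with hg19. Annotation, strandedness and alignment options: not given in the sources used here. HTSeq's records of reads in no gene were left out of library sizes. Library depth was 23707695 to 50570234 reads in genes. Separate cultures are not stated for replicates in the labels, so p-values measure only the spread between these samples.

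Counts were tested with edgeR 4.0.16 in R 4.3.3 (filterByExpr with a minimum count of 10 and 15 in total, TMM scaling, robust quasi-likelihood F test, Benjamini-Hochberg adjustment over all genes tested, threshold 0.05). The 9 libraries of a line were fitted on their own for drug comparisons. The comparison of the lines and the interactions used 1 fit to all 18. Printed CPM are on a TMM scale over all 18 libraries, whereas fold changes come from the fits. The standard error is the size of the log2 fold change divided by the square root of F. The test was also run on counts simulated for amiloride in KMS12-BM, with 200 genes given a change and 15407 genes in the fit. It called 72.4% of genes changed by 1 on the log2 scale, 25.8% of those changed by 0.5 and 0.0723% of unchanged genes. In the data 68.7% of genes were called. With so few changed genes the adjusted threshold is stricter, so these rates do not give the sensitivity of the reported test.

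Named are, per comparison, the 8 largest called rises and falls with a mean of at least 5 CPM, 10 genes followed in every comparison (MRPL12, MRPL11, MRPL33, MRPL41, MRPS12, MRPS30, MRPS18A, MRPS18B, MRPS18C and MRPS36), and from the companion lists some of the 3 genes with the smallest adjusted p per drug comparison. Genes named for a pattern, an overlap, a neighbour or a level were chosen after their values were seen. The genes and lists were chosen with earlier results of these data known.

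The library numbers in the labels fall into 3 sets of 6 consecutive numbers, 1 library of each group per set. Deviations from the group means correlated within sets in KMS12-BM (r 0.116 to 0.362) and between DMSO and TG003 in JJN3 (0.295 to 0.32). In JJN3 with amiloride the correlations within sets were 0.0506 to 0.101. In KMS12-BM, DMSO of set 2 correlated more with set 3 (0.157 for amiloride, 0.171 for TG003) than with its own set (0.116 and 0.149). Pairing by set was thus clear only between DMSO and TG003 in JJN3. The reported fits hold no term for the set.

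Alternatives were DESeq2 1.42.0 and limma 3.58.1 (voom) as tests, DESeq2 size factors, a filter of 1 CPM in 3 libraries or none, the set as a replicate block, the compared groups alone, pseudogene counts summed into their gene, removal of the GC trend (lowess, span 0.3), and each library left out in turn.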

Additional observations from a re-analysis of the deposited data

Results flagged for a closer look

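The response to amiloride differed between the lines, by the interaction term of the fit to all 18 libraries, for 30 genes of the set (39.5%), near the 43.2% of all genes tested. The differences, JJN3 minus KMS12-BM on the log2 scale, were 2.22 for MRPL1, 2.01 for MRPL23, 1.37 for MRPL27, 1.32 for MRPS25, 1.21 for MRPL12, 1.17 for MRPS14, 0.90 for MRPS16 and -0.95 for MRPL22. The doses were 0.4 mM in JJN3 and 0.1 mM in KMS12-BM, so line and dose cannot be told apart. For TG003, given at 0.4 mM to both lines, the same term was called for 6 genes (7.89%, against 13.9% of all genes): MRPL36 with 0.49, MRPS35 with 0.48, MRPS23 with 0.45, MRPS17 with 0.44, MRPS10 with 0.40 and MRPL40 with 0.37.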

How the results depend on the processing

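Across the other tests, scalings and filters, the replicate block, summed pseudogene counts and removal of the GC trend, the number of genes called stayed within 1.5 times of that reported, with 1 exception among the 7 comparisons. The exception was the interaction for TG003, called for 12 genes with the compared groups fitted alone. With the GC trend removed that interaction stayed within this range, but was called for 6 genes higher and 2 lower in JJN3. No reported call turned into a call in the other direction under these alternatives. With the replicate block the counts were 48, 42, 45 and 35 for amiloride in KMS12-BM and JJN3 and TG003 in KMS12-BM and JJN3, 55 between the lines, and 32 and 7 for the interactions. For JJN3 with amiloride, where correlations within sets were weakest, this is a rise from 31.

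With 1 library left out, the number called ranged from 42 to 48 and from 24 to 39 for amiloride in KMS12-BM and JJN3, from 28 to 36 and from 23 to 32 for TG003, from 51 to 56 between the lines, and from 25 to 33 and from 3 to 11 for the interactions with amiloride and TG003.

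Of 152 named values, 117 were called, and 26 of these lost the call in at least 1 alternative. Values that changed sign after a call were, with the GC trend removed and amiloride in KMS12-BM, MRPL41 at 0.006, MRPL33 at -0.005 and MRPS36 at -0.085, and with pseudogene counts summed, MRPS36 at -0.116 in KMS12-BM and -0.05 in JJN3 with TG003. Of the values not called, 16 were called in some alternative and 17 changed sign. MRPL30 and MRPS24 had too few counts for small changes to be seen.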
